A study of Homo sapiens with 8 samples.

Results

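SLINKY knockdown was examined in A498 cells, a clear cell renal carcinoma (ccRCC) cell line, by comparing the 2 libraries transfected with siRNA against SLINKY with the 2 libraries transfected with a non-targeting control (NTC). These are 4 of the 8 RNA-seq libraries of the series, and the other 4 hold the same transfections in 786-O, another ccRCC cell line. Within A498, RefSeq transcripts were joined to current gene symbols and their FPKM (fragments for each kilobase of transcript, relative to library depth) were summed per gene. Of 22674 genes, the 11023 that spanned at least 200 bp and averaged at least 1 FPKM over the 4 A498 libraries were compared.

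All 4 A498 libraries came from cells of 1 line kept in DMEM with fetal bovine serum and transfected by Lipofectamine 2000 with 50 nM siRNA for 16 hr by the labels. In the labels the groups differed in the siRNA alone. NTC libraries 1 and 2 had non-target control siRNA, 1 library had SLINKY siRNA1 and the other had SLINKY siRNA2. The labels call the siRNAs ON-TARGETplus pools, whereas the study's methods describe separate siRNAs that are each directed at the first exon of SLINKY. No label says that libraries of a group came from separate cultures, so the p-values measure the spread between these libraries, and the siRNAs stand in as the replicates of the knockdown.

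Long intergenic non-coding RNAs (lincRNAs) are spliced, polyadenylated transcripts that lie between protein-coding genes and encode no known protein. Some act at their own locus on neighboring genes, and others act elsewhere through the proteins that bind them. An siRNA loads into the Argonaute complex and directs cleavage of a matching RNA, but each siRNA can also lower other transcripts through partial matches of its seed. A pair of siRNAs with different seeds is therefore read for the genes that move with both.

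SLINKY is on chromosome 7, and its entry in the deposited tables spans chr7:106415457-106436010 (hg19) on the plus strand, where the GENCODE annotation now has the lncRNA gene LINC02577.

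SLINKY was lower with both siRNAs. Its level was 14.6 FPKM in NTC 1, 16.1 FPKM in NTC 2, 1.64 FPKM with siRNA1 and 3.01 FPKM with siRNA2. The siRNA libraries did not overlap with the NTC libraries, and they held 10.7% and 19.7% of the NTC mean of 15.3 ± 1.04 FPKM (SD, n = 2). The mean log2 difference was -2.73, and the exact two-sided permutation test over the 4 libraries gave p = 0.333, the smallest it allows with 2 libraries against 2. The intervals deposited with each value were 0.702 to 2.59 FPKM for siRNA1 and 1.44 to 4.59 FPKM for siRNA2, so the siRNAs could not be ranked by knockdown from these libraries. In bulk RNA, less transcript in each cell and fewer cells that carry it cannot be told apart.

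**Figure D1:**
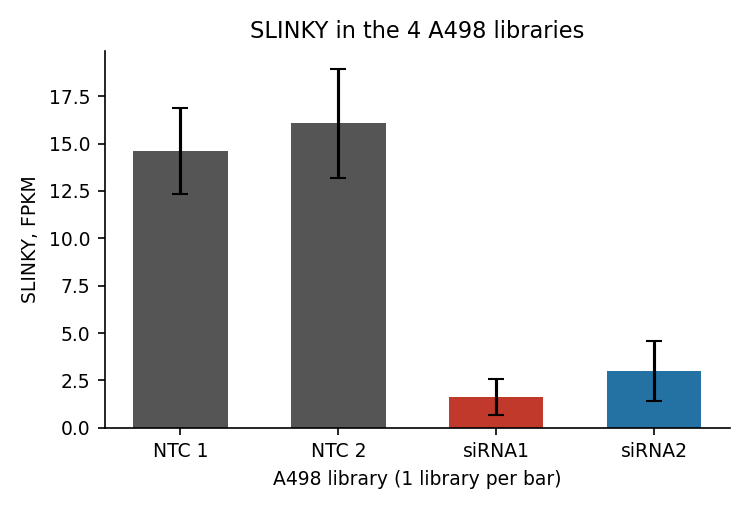
SLINKY level (FPKM, vertical axis) in each of the 4 A498 libraries, 1 bar per library, with the interval deposited with each value as the error bar. Both siRNA libraries sit at or below 3.01 FPKM and both NTC libraries at or above 14.6 FPKM.

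The neighboring genes were read first, since a lincRNA can act on the genes beside it. Within 500 kb of SLINKY the tables hold 6 RefSeq genes, of which 4 averaged at least 1 FPKM, and none of these moved with both siRNAs or passed limma. HBP1, a transcriptional repressor, was at 11.04 and 10.8 FPKM in NTC and at 11.4 and 11.5 FPKM in the siRNA libraries. NAMPT, the rate-limiting enzyme of NAD salvage, was at 121.5 and 135.0 FPKM against 132.7 and 134.2 FPKM. PIK3CG, the catalytic gamma subunit of PI3K, was at 0.0231 FPKM or less in all 4 libraries, so a difference in it was not detectable.

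The identity of the cells was checked before the comparison. The ccRCC and kidney markers PAX8 and NNMT were present at 39.2 to 42.9 and 102.1 to 105.04 FPKM, as were vimentin (VIM, 2024 to 2111 FPKM), KRT8 and KRT18, while PAX2 was low at 1.52 to 1.84 FPKM. CA9, a hypoxia target used as a ccRCC marker, was at 0.56 FPKM or less in all 4 libraries and is thus close to absent. Of 11 blood cell and 8 endothelial markers, none reached the level at which genes were compared. The summed level of each list was 0.989 to 1.39 FPKM in every library, with PTPRC and KDR at 0. Of 10 fibroblast markers 2 were compared and neither moved, and the list summed to 4.66 to 5.46 FPKM. Mapped reads were estimated from the FPKM of transcripts hit by 1 read. They were 53132752 in NTC 1, 36662749 in NTC 2, 35351415 with siRNA1 and 25135359 with siRNA2, the shallowest library. Both siRNA libraries were thus shallower than both NTC libraries, so depth and knockdown cannot be told apart by design.

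Few genes moved with both siRNAs. A gene was said to have moved when both siRNA libraries differed from the NTC mean in the same direction, each by at least 0.32 on the log2 scale and by more than the difference between the NTC libraries, after adding 0.1 FPKM. By this rule 71 of the 11023 genes moved (0.644%), 26 up (0.236%) and 45 down (0.408%). The rule itself keeps the siRNA libraries of these genes apart from NTC. With 1 siRNA at a time this size was passed by 125 genes up (1.13%) and 231 down (2.1%) for siRNA1, and by 240 up (2.18%) and 312 down (2.83%) for siRNA2. The NTC libraries themselves differed by that size in 456 genes (4.14%). The median over all genes was 0.01 on the log2 scale. FAM171A2, just inside the limit, was at -0.32202 with siRNA1, and FAM53C, just outside it, at 0.32145 with siRNA1.

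**Figure D2:**
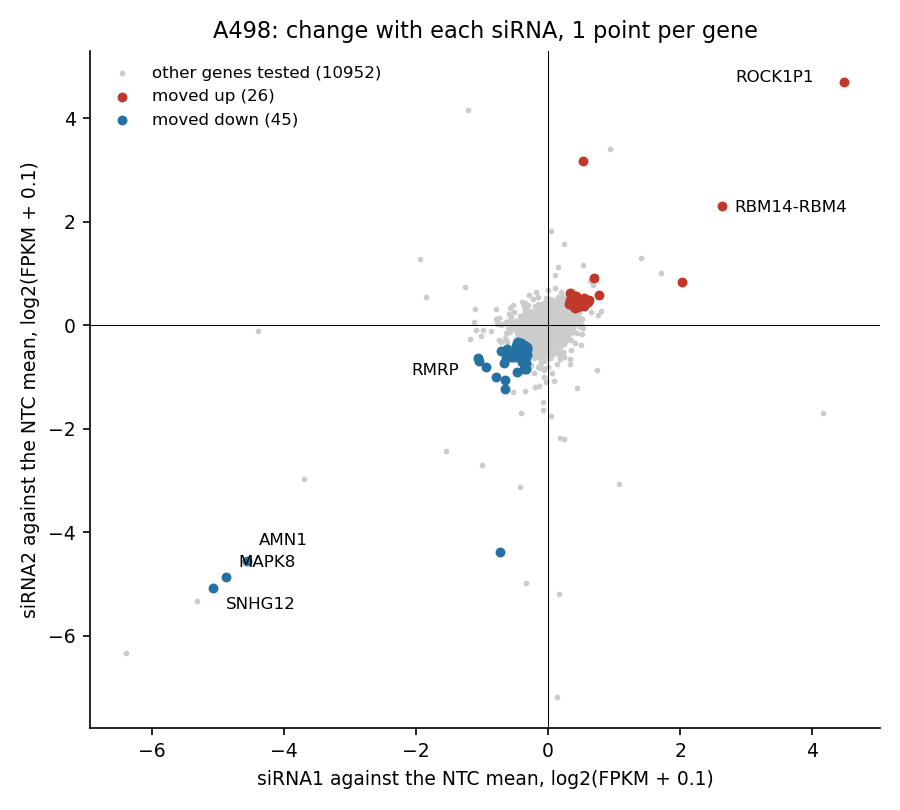
Difference of the siRNA1 library (horizontal) and of the siRNA2 library (vertical) from the NTC mean, each as log2(FPKM + 0.1), with 1 point per gene over 11023 genes. Both axes share the NTC libraries. The 26 genes that moved up and the 45 that moved down lie in the upper right and lower left, and most are close to the origin.

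limma, a linear model fitted over all genes, passed 6 of the 11023 genes (0.0544%) at an adjusted p under 0.05, with 4 that fell (0.0363%) and 2 that rose (0.0181%) after knockdown, and 738 genes (6.7%) had an unadjusted p under 0.05. All 6 were among the 71. They are MAPK8, SNHG12, AMN1, RMRP, ROCK1P1 and RBM14-RBM4, and 5 of them share their locus with other entries of the tables, among which Cufflinks divides the reads.

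MAPK8 encodes the stress kinase JNK1. Its entries held 2.59 and 3.16 FPKM in NTC and 0.00138 and 0.00194 FPKM in the siRNA libraries (limma adjusted p = 2.8e-07). Its locus also holds 2 RefSeq transcripts that were matched to no current symbol, to which nearly all of the FPKM was assigned in the siRNA libraries. When these were added, the sum was 2.77 and 3.17 FPKM in NTC and 2.78 and 2.73 FPKM with siRNA1 and siRNA2. The groups did not separate in the sum, whose log2 difference was -0.10 (limma adjusted p = 0.88), so the locus as a whole was not shown to change.

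AMN1 and SNHG12 had the same form. AMN1, whose yeast counterpart acts at mitotic exit, was at 2.27 FPKM in both NTC libraries and at 0.000134 and 0.000187 FPKM in the siRNA libraries (limma adjusted p = 3.2e-07), and its locus sum was 2.27 and 2.27 against 2.22 and 1.94 FPKM. SNHG12, a host gene of small nucleolar RNAs, was at 3.65 and 2.90 FPKM in NTC and was listed at about 0 in both siRNA libraries (limma adjusted p = 2.8e-07), while its locus sum was 50.5 and 48.5 against 55.8 and 48.5 FPKM. Neither sum passed limma (adjusted p = 0.86 for AMN1 and 0.88 for SNHG12). In 786-O, SNHG12 was listed at about 0 in all 4 libraries.

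Among the higher genes, ROCK1P1, a pseudogene of the kinase ROCK1, was at 0.00276 and 0.00246 FPKM in NTC and at 2.19 and 2.59 FPKM in the siRNA libraries (limma adjusted p = 3.2e-07). An assembled lncRNA at the same place carried the NTC reads, and the locus sum was 1.60 and 2.11 against 2.19 and 2.59 FPKM (limma adjusted p = 0.78). RBM14-RBM4, a readthrough transcript of adjacent genes for RNA-binding proteins, was at 0.339 and 0.387 FPKM in NTC and at 2.78 and 2.18 FPKM with the siRNAs (log2 2.47 ± 0.17, SE, limma adjusted p = 2.5e-05). It shares its exons with RBM14, at 8.09 to 8.50 FPKM, and RBM4, at 50.1 to 53.3 FPKM, neither of which moved. In 786-O it was at 0.885 and 0.805 FPKM in NTC, 2.41 FPKM with siRNA1 and 0.000921 FPKM with siRNA2, so the siRNA libraries fell on either side of NTC.

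**Figure D3:**
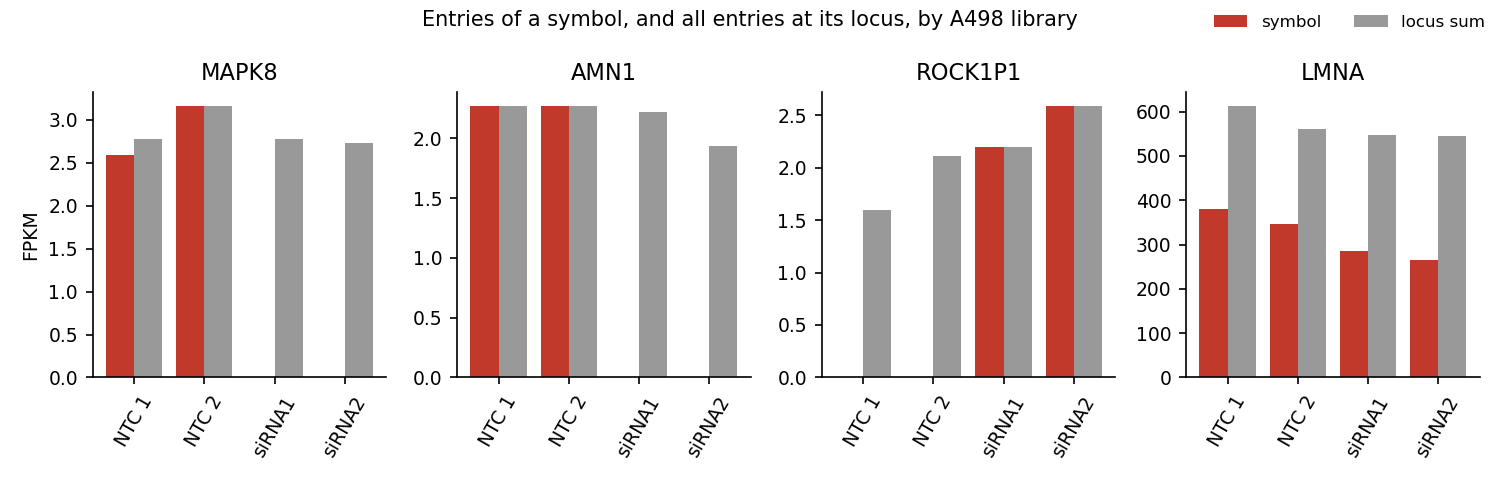
FPKM (vertical axes, each from 0) in the 4 A498 libraries for MAPK8, AMN1, ROCK1P1 and LMNA, with the entries of the symbol in red and the sum of all entries at the locus in gray. The red bars separate NTC from siRNA libraries, while the gray bars of MAPK8 stay between 2.73 and 3.17 FPKM in all 4.

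RMRP was the only gene past limma that lay alone at its locus. How the library preparation captured this short non-coding RNA was not tested. It is the RNA of the RNase MRP complex, which cleaves precursor ribosomal RNA, and its entry spans chr9:35657748-35658015 (hg19) on the minus strand. RMRP was at 13.96 FPKM in NTC 1, 12.5 in NTC 2, 6.87 with siRNA1 and 7.51 with siRNA2. Both siRNA libraries were below both NTC libraries, and RMRP fell by 0.87 on the log2 scale (SE 0.09, limma adjusted p = 0.0022). The deposited intervals correspond to 55, 34, 18 and 14 reads, and 3 of the 4 pairs of NTC and siRNA intervals overlapped, all but NTC 1 (10.2 to 17.7 FPKM) with siRNA1 (3.63 to 10.1 FPKM). Without NTC 1 or without NTC 2 the adjusted p was 0.13 and 0.053, and RMRP also did not pass without the variance trend, with the highest entry of a symbol or with all 8 libraries in 1 fit. The RNA is shown because it is the gene on which this result rests, in GRCh37 at chr9:35657751-35658014 on the minus strand, and its 264 bases have a GC content of 63.3%.
RMRP: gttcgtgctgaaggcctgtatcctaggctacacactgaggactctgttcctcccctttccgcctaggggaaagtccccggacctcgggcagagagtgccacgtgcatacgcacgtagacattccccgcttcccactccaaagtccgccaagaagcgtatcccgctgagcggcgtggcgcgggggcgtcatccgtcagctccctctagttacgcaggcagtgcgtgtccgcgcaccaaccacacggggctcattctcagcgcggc

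The other genes that moved down did not pass limma, and 7 of the 45 averaged at least 10 FPKM. GDF15, a secreted stress cytokine of the TGF-beta superfamily, was by far the most abundant, and it lies at chr19:18496968-18499986 (hg19). GDF15 was at 953.7 and 849.3 FPKM in NTC and at 695.8 and 632.6 FPKM with siRNA1 and siRNA2. The mean log2 difference was -0.44 (limma adjusted p = 0.082). MT1A, a zinc- and cadmium-binding metallothionein, was at 41.1 and 43.8 FPKM in NTC against 31.5 and 30.2 FPKM (log2 -0.46, limma adjusted p = 0.079).

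LMNA, which encodes lamins A and C of the nuclear lamina, was at 380.3 and 346.0 FPKM in NTC against 286.2 and 264.7 FPKM. Entries of LMNA were marked as failed by Cufflinks 12 times in the 4 libraries, and with the unmatched LMNA transcript the locus sum was 613.5 and 560.7 against 546.8 and 545.6 FPKM, which is no longer beyond the limit of size. CCDC85B, a coiled-coil protein, was at 42.4 and 33.9 FPKM in NTC against 29.6 and 26.7 FPKM (log2 -0.43, limma adjusted p = 0.45). PPIAP46 and HNRNPA1P10, pseudogenes of cyclophilin A and of HNRNPA1, moved down as well, and 36 bp reads cannot be assigned with certainty between such copies and their parent genes. HNRNPA1 itself was at 58.8 and 60.2 FPKM in NTC against 69.0 and 70.9 FPKM (limma adjusted p = 0.62).

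At lower levels the list of genes that moved down was mixed. LINC01023, a lincRNA, was at 6.35 and 6.55 FPKM in NTC against 4.08 and 3.04 FPKM and was closest to the threshold (log2 -0.86, limma adjusted p = 0.052). TPGS1, a subunit of the tubulin polyglutamylase, was at 9.12 and 5.96 FPKM against 4.74 and 3.15 FPKM, and LRFN4, an adhesion protein with leucine-rich repeats, was at 1.93 and 1.78 against 1.13 and 1.08 FPKM. Receptors, ligands and GTPases among them, picked after their values were seen, included the Wnt receptor FZD8, the Nogo receptor RTN4R, the death receptor TNFRSF25, the small GTPase RAC2 and the secreted ligands UCN, CCL4 and RARRES2. All 7 were under 8 FPKM in every library, and their mean log2 differences from limma lay between -0.60 (UCN) and -0.39 (FZD8), with adjusted p of 0.48 to 0.66.

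None of the 26 genes that moved up reached an average of 10 FPKM, and 25 were under 5 FPKM. TSPAN2, a tetraspanin, was at 1.01 and 1.15 FPKM in NTC and at 1.81 and 2.12 FPKM with siRNA1 and siRNA2 (log2 0.81 ± 0.14, SE, limma adjusted p = 0.15). SCML1, a relative of the Polycomb protein Scm, was at 2.76 and 2.58 against 3.94 and 3.89 FPKM. TDG, the thymine DNA glycosylase that opens base excision repair at G/T mismatches and at oxidized 5-methylcytosine, was at 3.17 and 3.62 against 4.455 and 4.94 FPKM.

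Other genes of known function that moved up were PTGER4, the EP4 receptor of prostaglandin E2, at 1.35 and 1.45 against 2.09 and 1.83 FPKM, and POLK, a translesion DNA polymerase, at 1.64 and 1.66 against 2.19 and 2.27 FPKM. ASH2L, a core subunit of the histone H3K4 methyltransferases, was at 5.68 and 6.92 against 8.73 and 8.73 FPKM. With the entries at their loci added, neither POLK nor ASH2L moved. The readthrough TGIF2-RAB5IF and the antisense RNAs ZEB1-AS1 and OIP5-AS1 were also on the list, and OIP5-AS1 rested on siRNA2, with 0.665 and 0.707 FPKM in NTC, 1.04 FPKM with siRNA1 and 6.99 FPKM with siRNA2, against a locus sum of 22.6 FPKM or more. The counting is not stated to use strand, so antisense RNAs cannot be told apart from the genes they overlap.

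The genes that moved were low in abundance. Other entries overlapped 11 of the 26 that moved up and 26 of the 45 that moved down, and this overlap was not counted over all genes. Of the 71 genes, 77.5% averaged under 5 FPKM, against 33.9% of the genes compared. Genes with non-coding RefSeq entries alone made up 6 of the 26 that moved up and 12 of the 45 that moved down, against 3.72% of the genes compared. With the unmatched entries at each locus added, 21 of the 26 and 32 of the 45 still moved. Such entries were present for 6 of the 26 and 14 of the 45, beside 2186 of the 11023 genes compared. Of the 20 genes that moved and had such entries, 2 still moved, 1 in each direction.

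The genes that moved down were also rich in G and C. The longest GENCODE transcript had a median GC content of 58.7% in the 42 genes that moved down and have one, 43.3% in 24 that moved up, and 48.2% in all 10877. When the genes compared were split by GC content into 5 bins of equal size, the bin with the most GC held 22 of the genes that moved down and none of those that moved up. All genes followed GC in the same way. From the lowest to the highest bin the median log2 difference went from 0.06 to -0.06 with siRNA1 and from 0.12 to -0.12 with siRNA2. The NTC libraries differed along GC by as much, from -0.15 to 0.12 for NTC 1 minus NTC 2.

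Values were therefore also centered within 20 bins of GC content, an alternative chosen after this was seen. After centering, 24 genes moved up and 33 down, with 20 of the 26 and 30 of the 45 among them, and 9 of the 33 lay in the bin with the most GC. GDF15 no longer moved (log2 -0.28 with siRNA1 and -0.32 with siRNA2, limma adjusted p = 0.13), nor did CCDC85B, LMNA, FZD8, RTN4R, UCN or RARRES2. Their mean log2 differences from limma were then between -0.25 (FZD8) and -0.47 (UCN), with LMNA at -0.32 after -0.40 before and UCN still at -0.64 and -0.33 with siRNA1 and siRNA2. MT1A (-0.43 and -0.50), LINC01023, TPGS1, LRFN4, TSPAN2, SCML1 and TDG still moved. The 6 genes past limma were the same 6.

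**Figure D4:**
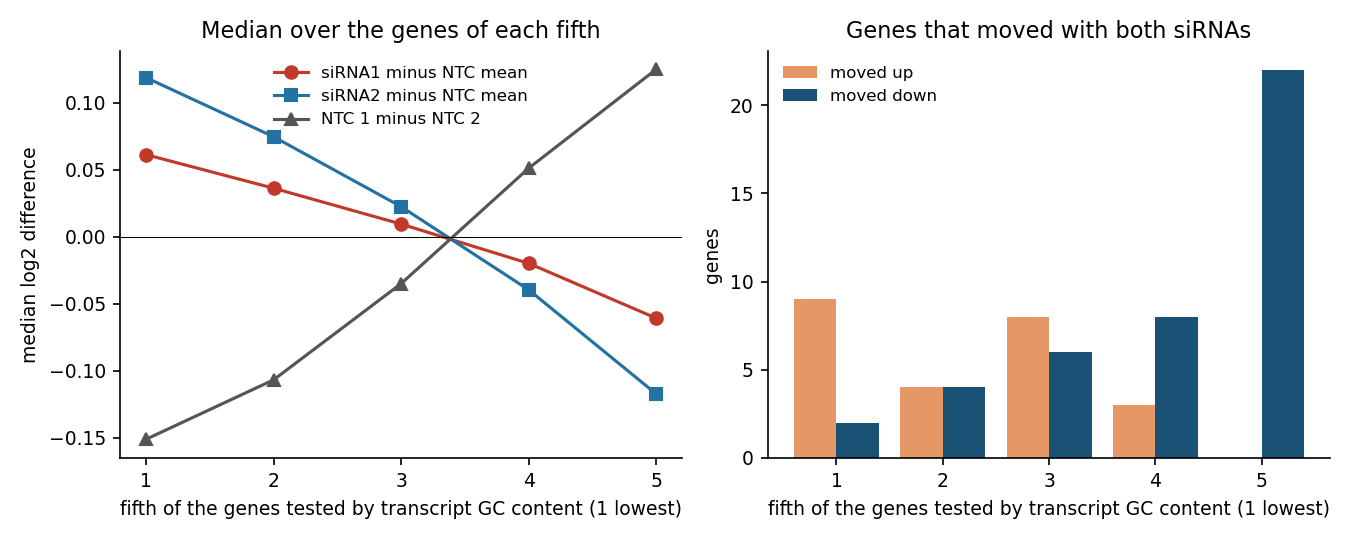
Left, median log2 difference of siRNA1 and of siRNA2 from the NTC mean, and of NTC 1 from NTC 2, in each of 5 bins of genes by transcript GC content. Right, number of genes that moved up and down in each bin. The siRNA lines descend from 0.06 and 0.12 to -0.06 and -0.12 while the NTC line ascends, and 22 of the genes that moved down are in the highest bin.

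Proliferation genes were read because the study reports slower proliferation and fewer cells in S phase after SLINKY knockdown. Those effects were measured later after transfection than the RNA was taken, so the RNA values do not test growth at those times. Of 47 S phase and DNA replication genes compared none moved, and their median log2 difference was -0.04 beside 0.01 for all genes. Of these 47, 53.2% were below the NTC mean with both siRNAs, against 30.8% of all genes, and 19.1% were above, against 37.5%. The NTC libraries themselves differed on this list, with a median NTC 1 minus NTC 2 of -0.086, beside -0.026 for all genes. The median knockdown difference was -0.056 after GC centering and lay between -0.0733 and -0.0044 over the alternatives run, with -0.0044 without NTC 2. PCNA, the sliding clamp of DNA polymerases, was at 174.0 and 197.4 FPKM in NTC against 177.0 and 174.7 FPKM, so the groups overlapped. Of 64 mitosis and G2/M genes none moved, with a median of 0.05, which was -0.00060 after GC centering. Their median NTC 1 minus NTC 2 was -0.13. MKI67, the proliferation marker Ki-67, was at 10.0 and 10.2 FPKM in NTC against 10.1 and 10.9 FPKM.

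Of 15 G1 cyclins, CDKs and inhibitors and of 26 p53 target genes none moved, with medians of -0.0095 and -0.0057. Cyclin D1 (CCND1) was at 35.7 and 37.2 FPKM in NTC, 28.5 FPKM with siRNA1 and 35.6 FPKM with siRNA2. Both siRNA libraries were thus below NTC, siRNA2 by 0.03 on the log2 scale and siRNA1 by 0.35 (limma adjusted p = 0.79). In 786-O CCND1 was at 74.8 and 70.2 FPKM in NTC, 50.4 FPKM with siRNA1 and 70.5 FPKM with siRNA2. The CDK inhibitor p21 (CDKN1A) was at 313.6 and 285.9 against 299.1 and 286.6 FPKM. HNRNPK encodes the RNA-binding protein that the study reports to bind SLINKY, on a protein array and by RNA immunoprecipitation in A498. Its RNA was at 107.0 and 119.0 against 121.9 and 124.6 FPKM (log2 0.13 ± 0.07, SE, limma adjusted p = 0.79). RNA levels do not measure that binding.

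Metallothioneins, small cysteine-rich proteins that bind zinc, copper and cadmium, had the lowest median of the lists. Of 7 members compared, 1 moved (MT1A), against 0.644% of all genes, and none passed limma. Of the 7, 5 were lower than the NTC mean with both siRNAs, against 30.8% of all genes, and the median was -0.21, with -0.18 after GC centering. MT2A, the most abundant, was at 2862 and 2818 FPKM in NTC against 2468 and 2386 FPKM (log2 -0.23 ± 0.05, SE, limma adjusted p = 0.45). MT1X was at 244.1 and 246.5 against 218.6 and 207.3 FPKM, and neither it nor MT2A overlapped between groups, as was so for 16.7% of all genes in that direction. MT1F and MT1E gave no such order, with MT1E at 2.67 and 5.93 against 3.45 and 5.63 FPKM. The members are near-identical in sequence, so reads may be divided among them.

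Metallothionein promoters carry metal response elements, bound by MTF1, and are shown for that reason. In the RefSeq promoter table (GRCh38.p14, 250 bases before to 50 after the start), 4 members were searched. MT1A, the member that moved, was not among them. The MT2A and MT1X promoters are given, with matches to the core letters TGCACNC or TGCGCNC on either strand in capitals.
MT2A promoter, chr16:56608334-56608633, plus strand: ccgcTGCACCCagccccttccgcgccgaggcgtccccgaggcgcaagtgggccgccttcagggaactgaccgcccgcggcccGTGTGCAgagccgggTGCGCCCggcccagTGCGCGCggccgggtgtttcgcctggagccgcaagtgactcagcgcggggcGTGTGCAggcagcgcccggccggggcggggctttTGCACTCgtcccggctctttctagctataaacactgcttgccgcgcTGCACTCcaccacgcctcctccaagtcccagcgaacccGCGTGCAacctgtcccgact
MT1X promoter, chr16:56682220-56682519, plus strand: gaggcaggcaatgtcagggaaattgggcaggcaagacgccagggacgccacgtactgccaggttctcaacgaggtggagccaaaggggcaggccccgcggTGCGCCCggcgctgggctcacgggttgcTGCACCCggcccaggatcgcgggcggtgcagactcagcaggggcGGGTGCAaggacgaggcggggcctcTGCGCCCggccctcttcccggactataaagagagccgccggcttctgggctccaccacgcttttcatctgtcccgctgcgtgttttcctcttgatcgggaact
The search found 8 matches in MT2A, 8 in MT1H, 4 in MT1X and 3 in MT1B. At least 1 match was found in 29.6% of all 35116 promoters, at least 3 in 2.30% and at least 8 in 0.0199%. The shares were not matched for GC content, which was 72% in the MT2A promoter and 67% in the MT1X promoter. A match is a description of the letters, and binding was not measured.

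Ribosomal proteins and the respiratory chain had small negative medians. Of 79 cytosolic ribosomal protein genes none moved, and the median was -0.05. With both siRNAs 67.1% were below the NTC mean, against 30.8% of all genes, and 8.86% were above, against 37.5%. Of 75 nuclear genes of the respiratory chain none moved, and the median was -0.04. With both siRNAs 60% were below and 16% above. ATP5F1D, a subunit of ATP synthase, was among those farthest from NTC, with 134.7 and 117.8 FPKM in NTC against 110.1 and 93.1 FPKM (limma adjusted p = 0.63). Over the alternatives run on them, GC centering included, the medians lay between -0.0721 and -0.0219 for ribosomal proteins and between -0.0628 and -0.023 for the respiratory chain.

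Histone genes of the clusters on chromosomes 1 and 6 had a median of -0.18 over 26 compared (-0.17 after GC centering), with H4C5 down and H2BC14 up among the genes that moved. H4C5 was at 1.08 and 1.87 FPKM in NTC against 0.809 and 0.682 FPKM, and H2BC14 at 2.16 and 2.46 against 3.25 and 3.27 FPKM. Most replication-dependent histone messages have no poly(A) tail, and members are close copies. The list of small nucleolar RNA host genes also held the long non-coding RNAs MALAT1, NEAT1 and TUG1. Of its 10 genes compared, SNHG12 and SNHG10 moved down, and neither moved with the entries at its locus added. The median over the 10 was -0.12, with -0.002 for siRNA1, -0.18 for siRNA2 and -0.022 after GC centering. SNHG8, the most abundant, was at 301.0 and 327.4 against 333.4 and 332.2 FPKM.

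Innate immune genes were read because transfected siRNA can trigger interferon. None of 51 interferon-stimulated genes moved, and the median was 0.05. RSAD2 (viperin) was at 47.3 and 47.8 FPKM in NTC, 52.4 FPKM with siRNA1 and 63.1 FPKM with siRNA2 (limma adjusted p = 0.66). None of 27 NF-kB targets and cytokines moved, with a median of 0.08. BIRC3, an inhibitor of apoptosis induced by NF-kB, was at 23.8 and 25.1 against 29.0 and 30.0 FPKM (limma adjusted p = 0.60). In 786-O BIRC3 moved up by the rule of size, with 16.7 and 16.6 FPKM in NTC against 23.9 and 21.5 FPKM (limma adjusted p = 0.63). None of 26 regulators of apoptosis moved, and their median was 0.01.

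Metabolic and matrix lists were likewise without members that moved. Of 26 genes of cholesterol synthesis and uptake, 61.5% were above the NTC mean with both siRNAs, against 37.5% of all genes, and the median was 0.07, or 0.05 after GC centering. STARD4, a sterol transporter, was at 2.31 and 2.30 against 2.65 and 3.01 FPKM (limma adjusted p = 0.73). The hypoxia targets (36), glycolysis (20), ATF4 and unfolded protein response (39), NRF2 (25), proteasome (40), AP-1 (32), HNRNP family (26), RNA interference (12), matrix (28), protease (19), TGF-beta and YAP/TAZ (32), epithelial and mesenchymal (21), growth factor (21) and kidney (8) genes had medians between -0.05 and 0.06. The 12 integrins had a median of 0.10, or 0.03 after GC centering. Angiopoietin-like 4 (ANGPTL4) and stanniocalcin 1 (STC1), both hypoxia targets, were lower with siRNA1 alone, with ANGPTL4 at 87.2 and 80.0 FPKM in NTC, 61.0 FPKM with siRNA1 and 86.6 FPKM with siRNA2. STC1 was at 4.51 and 4.89 FPKM in NTC, 2.69 FPKM with siRNA1 and 5.12 FPKM with siRNA2. The siRNA1 library of 786-O was also the lowest of its 4, with STC1 at 1.26 and 1.06 FPKM in NTC against 0.461 and 1.28 FPKM, and ANGPTL4 at 9.61 and 10.1 against 7.75 and 16.02 FPKM.

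The 786-O libraries have NTC libraries of their own and took no part in choosing the A498 genes. By the same rule 56 of 10356 genes moved in 786-O (0.541%), 39 up (0.377%) and 17 down (0.164%), and limma passed 1 (0.00966%), PSMA3-AS1, with 414 genes (4.0%) at an unadjusted p under 0.05. Of the 26 genes that moved up in A498, 21 could be compared in 786-O, and 8 of them (38.1%) were above the NTC mean with both siRNAs, against 32.2% of all genes in 786-O. Of the 45 that moved down, 27 could be compared and 8 (29.6%) were below with both siRNAs, against 27.2% of all genes. These same-sign shares are near the background. By the rule of size, 3 of the 21 (14.3%) also moved up in 786-O, against 0.377% of all genes there. Of the 27, 1 (3.7%) moved down, against 0.164%. These shares rest on few genes and were not matched for abundance, and most genes that moved in A498 averaged under 5 FPKM there.

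The genes that moved in both cell lines were TSPAN2, SCML1 and TDG, which moved up, and the readthrough TM4SF19-DYNLT2B, which moved down. In 786-O, TSPAN2 was at 4.48 and 4.65 FPKM in NTC against 8.17 and 6.78 FPKM, SCML1 at 9.33 and 8.28 against 13.6 and 11.6 FPKM, and TDG at 6.24 and 6.07 against 7.99 and 8.55 FPKM. None of these passed limma in either cell line. TM4SF19-DYNLT2B was at 9.94 and 8.14 FPKM against 6.52 and 6.68 FPKM in A498, where its locus sum was higher with both siRNAs (log2 0.12 and 0.26). In 786-O it was at 4.24 and 2.87 against 2.38 and 1.76 FPKM.

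Genes that led the A498 list did not repeat this. GDF15 was at 16.1 and 17.4 FPKM in NTC of 786-O against 18.8 and 13.9 FPKM, and MT1A at 79.4 and 70.6 against 75.5 and 84.6 FPKM, with the siRNA libraries on either side of NTC for GDF15 and overlapping NTC for MT1A. RMRP was at 4.83 and 4.17 FPKM in NTC, 42.8 FPKM with siRNA1 and 3.73 FPKM with siRNA2, so 1 library of 786-O stood apart. The test of the difference between the cell lines passed 1 of 10971 genes (0.00911%), MAPK8, and 218 genes (1.99%) had an unadjusted p under 0.05. For MT1A the difference was -0.55 ± 0.11 (SE, limma adjusted p = 1.0), so a difference between the cell lines was not shown.

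**Figure D5:**
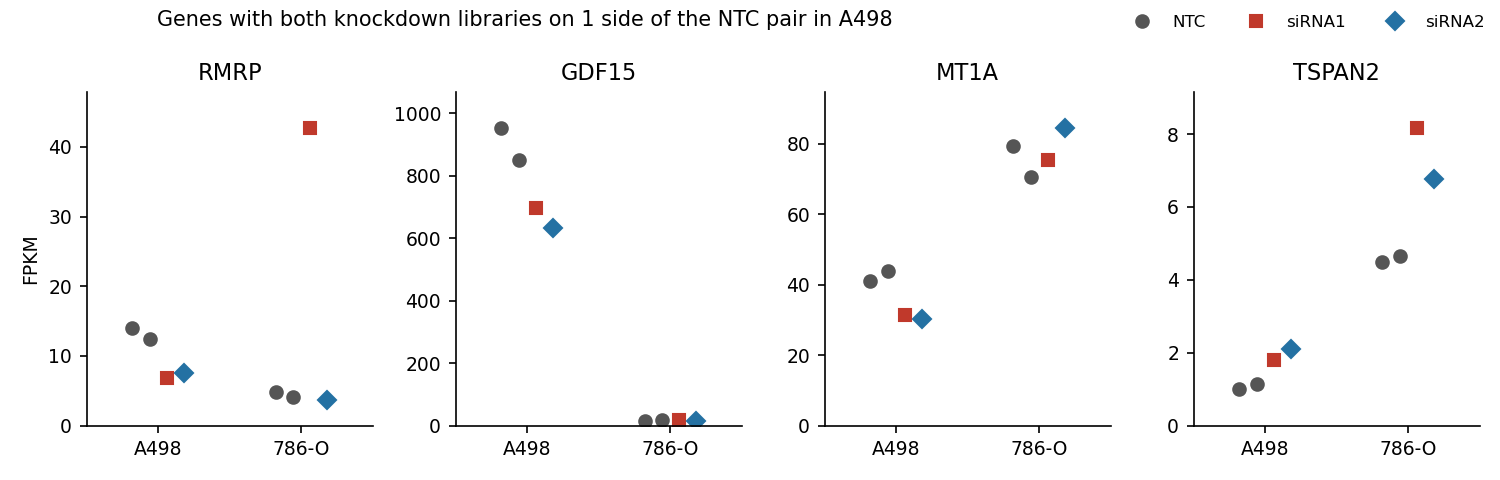
FPKM (vertical axes, each from 0) of RMRP, GDF15, MT1A and TSPAN2 in each A498 and 786-O library, with gray circles for NTC, red squares for siRNA1 and blue diamonds for siRNA2. In A498 both siRNA libraries are on the same side of both NTC libraries for all 4 genes, while in 786-O this is so for TSPAN2 and RMRP in siRNA1 reaches 42.8 FPKM.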

How the data were processed

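The authors prepared TruSeq libraries from total RNA, sequenced single-end 36 bp reads, mapped them to hg19 and deposited Cufflinks FPKM with an interval for each entry of each library. The submitters' processing notes name TopHat2 2.0.0 and Cufflinks 2.0.2. Each table held 75378 entries, of which 43150 are RefSeq transcripts, and 96.6% of these matched a symbol in a RefSeq gene table used for names only. GC content came from GENCODE v44 transcripts on GRCh37, and counting strand is not stated.

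Genes were compared as log2(FPKM + 0.1), which understates differences of low genes, with limma 3.58.1 (variance trend, two-sided, Benjamini-Hochberg over all genes, 0.05) in R 4.3.3, and by the rule of size. Python 3.11.15, pandas 2.3.3, numpy 2.4.6, scipy 1.17.1 and matplotlib 3.10.9 were used. A498 values were simulated for 11023 genes. On them limma called 100 of 100 genes with 2-fold changes, 49 of 100 with 1.25-fold changes and 4 of 10823 unchanged ones. The rule of size found 100, 34 and 14. Changes were not placed in the lowest genes, and the noise was independent and normal, with an SD set by abundance. The simulation held no GC trend and no division of reads among entries, so its error counts cannot be carried over to these libraries.

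Depth was estimated and no counts were used. Intervals cover counting error only. The members and gene lists were chosen with earlier results of these data known. Named were SLINKY, HNRNPK, MKI67, PCNA, CCND1, CDKN1A, TSPAN2, SCML1 and TDG, all limma calls, the 10 genes that moved most in each direction over all genes and over those with at least 10 FPKM, those that also moved in 786-O, and members of each list that moved or differed most. Some items that this rule names are not reported here. Others named in the text were chosen after their values were seen. Alternatives varied the pseudocount, filters, scaling, fold, entries and libraries. The locus sum, which adds entries of at least 200 bp without a symbol that lie at least 50% within a gene, the GC-centered values and the removal of failed entries were chosen after seeing the data.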

Additional observations from a re-analysis of the deposited data

Results flagged for a closer look

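MAPK8 was the 1 gene whose knockdown difference in A498 was itself different from that in 786-O, which is why it is listed here. The fitted difference between the cell lines, A498 minus 786-O, was -5.46 ± 0.38 on the log2(FPKM + 0.1) scale (SE, limma interaction, adjusted p = 0.0018). Its size depends on the 0.1 FPKM added, since the A498 siRNA libraries were at 0.00194 FPKM or less. In 786-O MAPK8 was at 6.00 and 3.05 FPKM in NTC against 5.81 and 7.31 FPKM with siRNA1 and siRNA2. With all entries at the locus added, no gene passed the test of the difference, and the A498 sum for MAPK8 was 2.73 to 3.17 FPKM in all 4 libraries. Groups of 2 libraries are too small to test single libraries as outliers.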

How the results depend on the processing

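limma passed 6 genes in A498 and the rule of size 71. The limma count was 0 of 18529 genes with no filter on the mean FPKM (1148 at an unadjusted p under 0.05), 3 with all 8 libraries in 1 fit, 13 with a replicate block, 23 with no filter on span (1 shared), and 8 to 121 without each library in turn, with 121 without siRNA1 and 73 without siRNA2, where 1 siRNA library is assumed to vary like NTC. The paired fit of the replicate block takes the replicate number of NTC and the siRNA number as pairs, which share only a number, and same-numbered libraries correlated at 0.176. The 6 genes remained in the block and the GC-centered fit, while RMRP was lost with no variance trend (5 genes), the highest entry of a symbol (5) and all 8 libraries, where AMN1 and RBM14-RBM4 were lost too. With a mean of at least 5 FPKM 5 genes passed (RMRP, LINC01023, GDF15, MT1A and LMNA), and with the locus sum 4 passed (RBM14-RBM4, RMRP, LINC01121 and CEP76), which share 1 and 2 with the 6. The count that moved was 16 with a mean of at least 5 FPKM, 17 at 1.5-fold, 33 with a pseudocount of 1 FPKM, 108 when the NTC difference was not required, 123 with no filter on span (71 shared), 192 with the highest entry of a symbol, 476 with no filter on the mean, and 123 to 311 without NTC 1 or NTC 2. It was 100 with the locus sum (53 shared), 83 with the block (56 shared) and 57 with GC-centered values (50 shared). In 786-O limma passed 1 gene, 2 with a pseudocount of 1 FPKM, 2 with median-ratio scaling, 0 with the locus sum and 1 to 42 without each library. The test between cell lines passed 1 gene, 0 with a pseudocount of 1 FPKM, 0 with the locus sum and 1 to 5 without each library. SLINKY stayed lower in every alternative run. For these counts the cause was not tested.

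Of 664 values of 83 named genes under alternatives, 35 changed sign, in 26 genes. With the locus sum the log2 difference was 0.071 for SNHG12, 0.074 for IDH1-AS1, 0.10 for MGAT2, 0.19 for TM4SF19-DYNLT2B, 0.064 for SNHG10, 0.0021 for DGCR8, -0.027 for PSMG2 and -0.059 for UHRF1. With GC-centered values it was 0.016 for CDKN1A, -0.051 for APAF1 and 0.045 for COL1A1, and APAF1 was at -0.00336 with median-ratio scaling. Without each library in turn the range was -0.0016 to 0.11 for MKI67, -0.17 to 0.015 for PCNA, -0.10 to 0.034 for CDKN1A, -1.21 to 2.33 for UHRF1, -0.34 to 0.19 for CDK6, -0.047 to 0.47 for XPC, -0.36 to 0.38 for APAF1, -0.49 to 0.084 for IL11, -0.78 to 0.12 for STC1, -0.45 to 0.052 for ANGPTL4, -7.01 to 0.31 for RPL21, -2.19 to 0.19 for RPSA, -0.64 to 0.33 for HNRNPH2, -0.076 to 0.29 for ITGB6, -0.055 to 0.41 for MMP13, -0.15 to 0.41 for CRIM1, -0.31 to 0.042 for PTHLH, -0.013 to 0.20 for LHX1 and -0.17 to 0.077 for COL1A1. Depth limits genes near 1 FPKM most in the siRNA2 library.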

Other observations

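Some abundant genes that did not move by the rule had both siRNA libraries on 1 side of NTC. SLC16A3, the lactate exporter MCT4, was at 350.0 and 320.0 FPKM in NTC against 286.2 and 289.3 FPKM (limma adjusted p = 0.65), and PSMG4, a proteasome assembly chaperone, at 21.6 and 21.8 against 17.95 and 17.2 FPKM (limma adjusted p = 0.49). FGF2, a fibroblast growth factor, was at 10.9 and 12.2 against 13.9 and 14.1 FPKM (limma adjusted p = 0.66), and ME1, the cytosolic malic enzyme, at 19.5 and 20.8 against 23.1 and 23.2 FPKM (limma adjusted p = 0.71). Such separation was common, as 20.7% of all genes were higher and 16.7% lower in both siRNA libraries than in both NTC libraries.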
